A study of Mus musculus with 14 samples.

Results

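The pyruvate dehydrogenase complex stands between glycolysis and the citric acid cycle, and 10 genes of it and of the enzymes that switch it were followed in mouse liver: the kinase genes Pdk1, Pdk2, Pdk3 and Pdk4, the phosphatase genes Pdp1 and Pdp2, and the subunit genes Pdha1, Pdhb, Dlat and Pdhx. They were chosen by name, and all 10 were found among the 22180 genes that had a probe set with a single gene symbol. The livers were those of male mice of the inbred strain C57BL/6J, 7 of them sleep-deprived (mice 1, 2, 3, 5, 6, 10 and 13) and 7 controls (mice 4, 7, 8, 9, 11, 12 and 14). No genotype, drug or transgene distinguishes the groups. The series title gives a single deprivation of 6 h, while the labels used here give neither its method for these mice nor their age, time of killing or feeding state. The study asked what a short loss of sleep does to glucose tolerance and liver fat. Expression was read on Affymetrix whole-transcript arrays from 100 ng of total RNA per liver, and every level below is a log2 value of a probe set on the scale of RMA, the normalization used by the authors, on which a difference of 1 is a doubling. The labels do not say outright that each sample is another mouse. Each is taken here as 1 mouse, so p-values measure the spread between these 14 samples.

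The complex converts pyruvate to acetyl-CoA inside mitochondria, a step that animals cannot run backwards. The kinases phosphorylate its catalytic subunit and switch it off, which spares pyruvate for glucose production in the fasting liver, and the phosphatases switch it on again after feeding. The kinases answer to different signals: Pdk4 transcription is known to rise with fasting, fatty acids acting through PPARA, and glucocorticoids, and to fall with insulin, while Pdk1 is known as a target of the hypoxia factor HIF1A. Pdk2 is the kinase found most widely across tissues.

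Array medians ran from 3.443 to 3.491 and pairwise correlations of arrays from 0.984 to 0.9903. Of 7 hepatocyte markers Alb, the serum albumin gene, was at 13.31 in both groups and Serpina1b the dimmest, at 5.29 in controls and 5.30 after sleep deprivation. Apoa1 and Cps1 were called higher by limma (log2 differences 0.12 and 0.11), and an exact permutation test did not call Cps1 (adjusted p = 0.0647). Hnf4a had the largest difference of the 7 and was not called (0.24 ± 0.076, limma, adjusted p = 0.0604), with 5 sleep-deprived livers above all controls. The mean level of skeletal muscle markers ran from 3.43 to 3.75 in controls and from 3.58 to 3.68 after sleep deprivation, with 0 of 6 called. That of adipocyte markers ran from 3.42 to 3.56 and from 3.46 to 3.94, and 1 of 5, the fatty acid binding protein gene Fabp4, was called higher (0.71 ± 0.16, limma, adjusted p = 0.00564). Bulk liver RNA cannot tell fewer cells of a type from less RNA per cell. Over all genes, 8.5% passed the test (limma, Benjamini-Hochberg adjusted p under 0.05), 3.88% as higher and 4.62% as lower after sleep deprivation.

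Against that background 2 of the 10 genes passed, Pdhx as higher and Pdk1 as lower. Calls were commoner among bright genes: 16% of the 11090 genes brighter than the median gene passed, or 20.4% when limma was fitted to those genes alone. Of the 10 genes 8 are that bright, and both called genes are among these 8, a count too small to set apart from the share among bright genes. Pdk4 had a wider difference than either, by its mean, and did not pass. The other 7 genes had log2 differences between -0.18 and 0.082. The median difference was -0.00048 over the 4 kinases, -0.11 over the 2 phosphatases and 0.012 over the 4 subunits, against -0.0048 over all genes. The catalytic core of the complex (Pdha1, Pdhb and Dlat) and both phosphatases were among these 7.

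**Figure D1:**
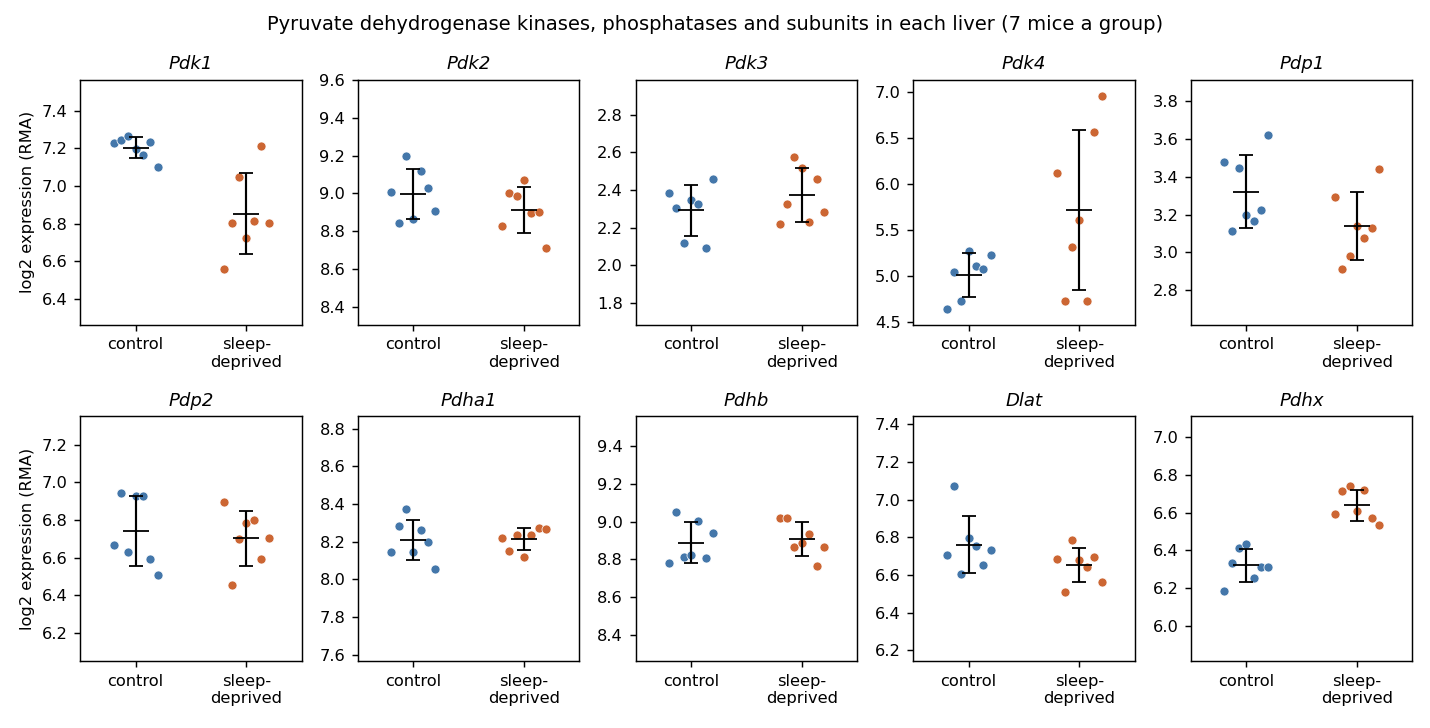
Log2 expression of the 10 genes in each liver, with 1 panel per gene and 1 point per mouse; bars give the mean and SD of 7 mice. All 7 sleep-deprived livers lie above all controls for Pdhx, 6 of 7 lie below all controls for Pdk1, and the sleep-deprived livers spread from 4.72 to 6.96 for Pdk4. Axis ranges differ between panels.

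The sequences before the transcription starts of these 3 genes are shown because their RNA levels carry the results. Each line gives the 250 bases before a RefSeq start (build GRCm38.p6), 5′ to 3′ along the gene, with each CG dinucleotide in capitals; the arrays themselves do not read these bases.
Pdk4, chr6:5496279-5496528, minus strand: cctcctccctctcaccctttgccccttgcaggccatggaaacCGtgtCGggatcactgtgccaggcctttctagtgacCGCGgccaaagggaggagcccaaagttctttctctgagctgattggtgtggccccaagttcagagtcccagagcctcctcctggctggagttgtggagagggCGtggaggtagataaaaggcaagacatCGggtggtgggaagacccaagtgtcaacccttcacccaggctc
Pdk1, chr2:71872974-71873223, plus strand: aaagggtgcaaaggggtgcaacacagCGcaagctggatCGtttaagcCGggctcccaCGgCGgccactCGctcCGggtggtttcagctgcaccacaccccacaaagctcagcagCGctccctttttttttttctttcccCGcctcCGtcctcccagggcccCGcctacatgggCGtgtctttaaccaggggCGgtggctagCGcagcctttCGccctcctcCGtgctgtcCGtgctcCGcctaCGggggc
Pdhx, chr2:103073514-103073763, minus strand: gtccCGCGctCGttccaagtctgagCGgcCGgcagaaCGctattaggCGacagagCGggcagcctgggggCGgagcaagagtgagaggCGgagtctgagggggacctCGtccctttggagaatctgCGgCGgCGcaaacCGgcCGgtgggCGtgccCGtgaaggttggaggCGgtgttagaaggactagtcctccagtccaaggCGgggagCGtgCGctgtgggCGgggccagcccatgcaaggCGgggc
The Pdk4 window held 6 CG dinucleotides, the median of all 32851 windows in the table, and the Pdk1 and Pdhx windows held 19 and 24. Pdk1 has a further RefSeq start downstream with only 2 in its window. RefSeq windows were matched for 9 of the 10 genes, Pdp1 being the other. Short motifs were searched on both strands: AGAACA, an arm of the glucocorticoid receptor site (in 16.1% of all windows), AGGTCA, an arm of nuclear receptor sites such as those of PPARA (14%), GTAAACA of forkhead factors (3.17%), the E-box CACGTG (6.02%) and ACGTG, the core of the hypoxia element, which lies within CACGTG (16.6%). None of these letters occurred in the 3 windows printed. AGAACA was read 2 times, on the strand opposite to the gene, in the window of the downstream Pdk1 start. CACGTG occurred in a window of Pdk2 and in that of Pdp2, and ACGTG outside an E-box in those of Pdk3 and Pdhb. A match is only a description of the letters, and a window without one says nothing about sites elsewhere.

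Among the kinases, Pdk1 fell after sleep deprivation. Control livers ran from 7.10 to 7.27 with a median of 7.23, and sleep-deprived livers from 6.56 (mouse 1) through a median of 6.80 to 7.21 (mouse 10). The controls were thus packed within a narrow range and 6 of the 7 sleep-deprived livers lay below all of them, with mouse 10 inside their range. The log2 difference was -0.35 ± 0.078 (SE here and below, limma's moderated value), which is 1.28-fold lower, with a 95% interval of -0.52 to -0.19 (limma, adjusted p = 0.00614). An exact permutation test over the 3432 splits of the mice gave an adjusted p of 0.0388. Of the 2 probe sets of Pdk1, the one above is the brighter. The other is among the dimmest of the array, with a mean ± SD of 1.90 ± 0.12 in the 7 controls and 1.84 ± 0.12 in the 7 sleep-deprived livers, and did not pass (limma, adjusted p = 0.717). Averaging both ended the call (-0.21, adjusted p = 0.0687).

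Pdk4 encodes the kinase induced by fasting and was the most uneven of the 10 genes among sleep-deprived livers. Control livers ran from 4.64 to 5.27 with a median of 5.07. Sleep-deprived livers ran from 4.72 (mouse 6) and 4.73 (mouse 2) over 5.31 (mouse 3), 5.61 (mouse 5), 6.12 (mouse 1) and 6.57 (mouse 10) to 6.96 (mouse 13). So 5 of the 7 sleep-deprived livers exceeded every control, and mice 2 and 6 sat low in the control range. The log2 difference was 0.70 ± 0.27, or 1.63-fold, with a 95% interval of 0.13 to 1.28. Its p of 0.0187 became an adjusted p of 0.137 (limma), and the exact permutation test gave p = 0.0629 and an adjusted p of 0.299. The call changed with single mice: the difference was 0.87 without mouse 2 (limma, adjusted p = 0.0412), 0.87 without mouse 6 (adjusted p = 0.0424) and 0.50 at the lowest of the 14 fits that left out a mouse. With the sample number of the titles as a covariate it was 1.07 (limma, adjusted p = 0.00874). Sample numbers were mostly lower in the sleep-deprived group, so this covariate is partly tied to the group. The labels do not say what the number stands for.

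Pdk1 and Pdk4 both had a large spread in the sleep-deprived group. The SD of Pdk4 was 0.87 there against 0.24 in controls, and that of Pdk1 was 0.21 against 0.057. Their SD ratios of 3.66 and 3.78 were reached by 0.473% and 0.374% of all genes, whereas the ratios of the other 8 genes lay between 0.545 and 1.05. Mouse 10 was high for both kinases, while mouse 1 was high for Pdk4 and the lowest for Pdk1. Within the sleep-deprived group the levels of Pdk4 and Pdk1 had a Pearson r of 0.133 (exact permutation p = 0.778, adjusted p = 0.986 over 9 relations) and a Spearman rho of 0 (exact p = 1, adjusted p = 1), with r = -0.537 once the 2 mice farthest from the median of Pdk4 were left out.

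Pdk2 and Pdk3 did not pass. Pdk2 ran from 8.84 to 9.20 (median 9.01) in controls and from 8.71 to 9.07 (median 8.90) after sleep deprivation, a log2 difference of -0.083 ± 0.064 (95% interval -0.22 to 0.050, limma, adjusted p = 0.557). The ranges overlapped over most of their width. Pdk3, which is known mostly from testis and brain, lay near the bottom of the array scale, from 2.09 to 2.46 in controls and from 2.22 to 2.58 after sleep deprivation, with a difference of 0.082 ± 0.076 (interval -0.077 to 0.24, limma, adjusted p = 0.65). At so dim a probe set a log2 difference can understate a change.

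The phosphatases, which reverse the action of the kinases, did not pass either. Pdp1, the calcium-stimulated form, ran from 3.11 to 3.62 (median 3.22) in controls and from 2.91 to 3.44 (median 3.13) after sleep deprivation. It too was a dim probe set, below the median of all genes, and 3 sleep-deprived livers lay below the lowest control. Its log2 difference was -0.18 ± 0.096 (interval -0.38 to 0.017, limma, adjusted p = 0.318). Pdp2, the form known to respond to insulin, ran from 6.51 to 6.95 in controls and from 6.45 to 6.90 after sleep deprivation, a difference of -0.039 ± 0.083 (interval -0.21 to 0.13, adjusted p = 0.872). Pdpr, which encodes the regulatory subunit of the phosphatase, was at 0.011 ± 0.065 (limma, adjusted p = 0.959).

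Pdhx rose. It encodes the binding protein that docks dihydrolipoamide dehydrogenase onto the core of the complex, and its loss in people causes pyruvate dehydrogenase deficiency. Control livers ran from 6.18 to 6.44 with a median of 6.31, and sleep-deprived livers from 6.54 to 6.74 with a median of 6.61. The groups did not overlap, as in 3.13% of all genes (1.34% with the sleep-deprived livers higher and 1.79% with them lower). The log2 difference was 0.32 ± 0.057, which is 1.25-fold, with a 95% interval of 0.20 to 0.44 (limma, adjusted p = 0.000892). The exact permutation test gave p = 0.000583, the smallest value these 14 mice allow, and an adjusted p of 0.0186. The call held in each of the 14 fits that left out a mouse, with differences from 0.30 to 0.34.

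The other subunits did not pass. Pdha1, the catalytic subunit that carries the regulatory phosphorylation sites, ran from 8.06 to 8.37 in controls and from 8.12 to 8.28 after sleep deprivation, and its difference was 0.0049 ± 0.052 (interval -0.10 to 0.11, limma, adjusted p = 0.976). Pdhb, its partner in the catalytic tetramer, was at 0.019 ± 0.055 (interval -0.095 to 0.13, adjusted p = 0.910), with ranges of 8.78 to 9.05 and 8.76 to 9.02. For Pdha1 and Pdhb the intervals exclude differences as large as that of Pdhx, though the difference between the genes was not itself tested. Dlat, the acetyltransferase core on which the complex is built, ran from 6.61 to 7.07 in controls, where mouse 7 stood above the others, and from 6.51 to 6.78 after sleep deprivation; its difference was -0.11 ± 0.068 (interval -0.25 to 0.033, adjusted p = 0.436). Dld, the dehydrogenase that Pdhx docks and that is shared with other complexes, was at -0.060 ± 0.044 (adjusted p = 0.540).

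**Figure D2:**
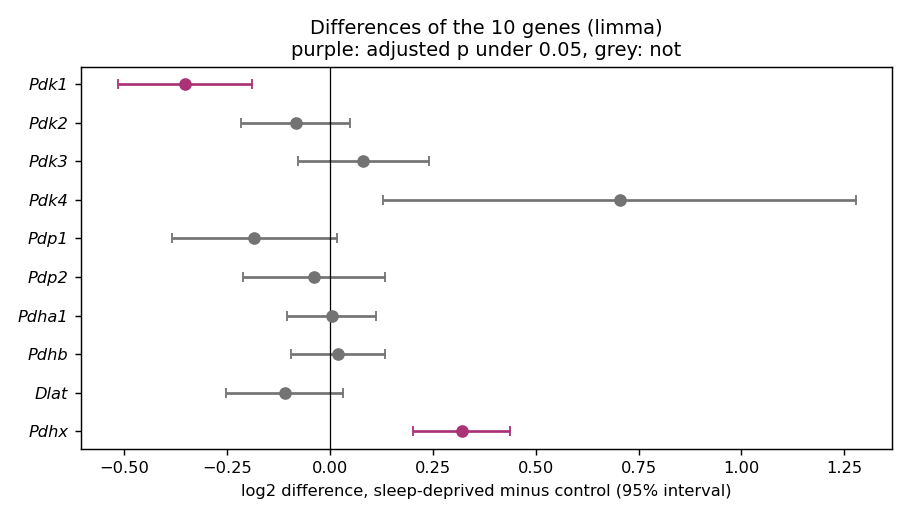
Log2 difference, sleep-deprived minus control, for the 10 genes with limma's 95% interval; purple marks adjusted p under 0.05. Pdk1 (-0.35) and Pdhx (0.32) lie clear of 0, and the interval of Pdk4 (0.13 to 1.28) is the widest of the 10.

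Pdk4 and Pdhx ran against each other within the sleep-deprived group. The 3 livers lowest in Pdk4 (mice 6, 2 and 3) were the 3 highest in Pdhx, at 6.72, 6.71 and 6.74, and mouse 13, the highest in Pdk4, was the lowest in Pdhx at 6.54. Pearson's r over the 7 mice was -0.919 (exact permutation p = 0.00734) and Spearman's rho -0.893 (exact p = 0.0123), and r was -0.829 without the 2 mice farthest from the median of Pdk4. Adjusted over the 9 relations of Pdk4 with the other genes, the p-values were 0.0661 and 0.111, so the relation did not pass (exact permutation test). In the 7 controls r was 0.38 and rho 0.393 (exact permutation p = 0.401 and 0.396, adjusted 0.553 and 0.715), and 0.624 without the 2 farthest mice. For Pdp1 the sleep-deprived livers gave r = 0.826 and rho = 0.786 with Pdk4 (exact permutation p = 0.02 and 0.048, adjusted 0.0902 and 0.216), with r = 0.822 without the 2 farthest mice, and the controls r = -0.329.

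Genes whose levels followed Pdk4 most closely over the 14 livers, after the mean of each group was taken off, were Slc22a5 (r = 0.95), Renbp (0.947), Cpeb4 (0.922), Lyve1 (0.918) and Grpel2 (0.915). They are the 5 highest among genes brighter than the median gene (predicted models, clones and small RNAs left out), a choice made for likeness, so no p is given. The SD of Pdk4 was 0.87 in sleep-deprived livers and 0.24 in controls, so these r values rest mostly on the 7 sleep-deprived livers. Slc22a5 encodes the carnitine transporter, a known target of PPARA. It ran from 6.56 (mouse 2) to 7.50 (mouse 13) in sleep-deprived livers against 6.44 to 6.81 in controls, and like Pdk4 it exceeded every control in 5 livers (0.37 ± 0.12, limma, adjusted p = 0.0594). Lyve1, a hyaluronan receptor of sinusoidal endothelium, rose in all 7 (1.13 ± 0.185, adjusted p = 0.000422), and Grpel2, a mitochondrial co-chaperone, by 0.41 ± 0.10 (adjusted p = 0.0143, and 0.0647 by exact permutation, which ends the call). Renbp and Cpeb4 followed Pdk4 between mice without passing between groups (-0.12 and 0.095). The same rule applied to Pdhx gave Capn8 (r = 0.885), Niban2 (0.845), Tarbp1 (0.841), Stt3a (0.811) and Slc25a17 (0.803), none of which passed.

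Of 9 marker lists, only the means of sinusoidal endothelial and stellate cell markers had a relation to Pdk4 that passed among the sleep-deprived livers. The endothelial relation did not pass without Lyve1, which is among the genes chosen above for likeness to Pdk4. The mean log2 level of 7 sinusoidal endothelial markers ran from 7.28 to 7.65 in controls and from 7.50 (mouse 6) to 7.97 (mouse 13) after sleep deprivation, with 3 of the 7 genes higher (Lyve1, Oit3 and Pecam1) and 0 lower. Pecam1 was not called by exact permutation (adjusted p = 0.0768), and Kdr had a negative difference (-0.18 ± 0.067, limma, adjusted p = 0.114) with all 7 sleep-deprived livers below the control mean. The 7 markers did not follow Pdk4 alike, r being 0.152 for Kdr, 0.298 for Fcgr2b and between 0.635 and 0.929 for the other 5. The relation of the mean over these markers to Pdk4 in the sleep-deprived group had r = 0.934 and rho = 0.964 (exact permutation p = 0.00179 and 0.00278, adjusted 0.0179 and 0.0139 over 10 relations), and r = 0.866 without the 2 farthest mice. Without Lyve1 the 6 remaining markers gave r = 0.798 and rho = 0.857 (exact permutation p = 0.0292 and 0.0238, adjusted 0.0972 and 0.0683), and r = 0.728 without the 2 farthest mice. Stellate cell markers, 0 of 7 of which passed limma (2 at an unadjusted p under 0.05), gave r = 0.892 and rho = 0.964 (exact permutation p = 0.00456 and 0.00278, adjusted 0.0228 and 0.0139; r = 0.881 without the 2 farthest mice), with mean levels of 6.73 to 7.11 in controls and 6.75 to 7.20 after sleep deprivation. Single stellate markers differed, r with Pdk4 being 0.2 for Lrat, 0.437 for Des, 0.495 for Col1a1 and between 0.678 and 0.924 for the others. Lrat also had a negative difference between the groups (-0.19 ± 0.12, limma, adjusted p = 0.440). In controls the same lists gave r = 0.605 and 0.22 and rho = 0.464 and 0.429 (exact permutation p = 0.166 and 0.574 for r, 0.302 and 0.354 for rho), with r = -0.238 and 0.318 without the 2 farthest mice. The 7 other marker lists gave r between -0.708 (skeletal muscle) and 0.773 (cholangiocyte), none of which passed after adjustment (exact permutation test). Their rho ran from -0.821 (skeletal muscle) to 0.821 (Kupffer cell), each with an exact permutation p of 0.0341 and an adjusted p of 0.0683. Without the 2 farthest mice r was -0.847 for skeletal muscle and 0.471 for Kupffer cell markers. The erythroid list had only 1 measured gene. The cholangiocyte list gave r = 0.773 and rho = 0.714 (exact permutation p = 0.0425 and 0.0881, adjusted 0.106 and 0.147), r = 0.165 without the 2 farthest mice, and r = 0.851 and rho = 0.821 in controls (exact permutation p = 0.00933 and 0.0341, adjusted 0.0933 and 0.24; r = 0.551 without the 2 farthest mice). Its mean level ran from 4.00 to 4.18 in controls and from 4.00 to 4.68 after sleep deprivation, and 1 of its 4 measured genes, Sox9, was called higher (0.56 ± 0.16, limma, adjusted p = 0.0359). Within the sleep-deprived group r with Pdk4 was 0.755 for Sox9, 0.867 for Epcam, 0.417 for Krt7 and 0.35 for Krt19. Epcam and Krt19 are dim probe sets. In that group Sox9, Fabp4, Lyve1, Oit3 and Pecam1 were lowest in mouse 6 and highest in mouse 13, as Pdk4 was. No other measured gene of their lists was. In the Kupffer cell list Adgre1, Marco and Csf1r, none of them called by limma, were also lowest in mouse 6 and highest in mouse 13. Krt7, Krt19 and Kdr were lowest in mouse 5 and highest in mouse 10, and Adipoq lowest in mouse 2 and highest in mouse 3. The part of these cells in the Pdk4 level was not tested.

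**Figure D3:**
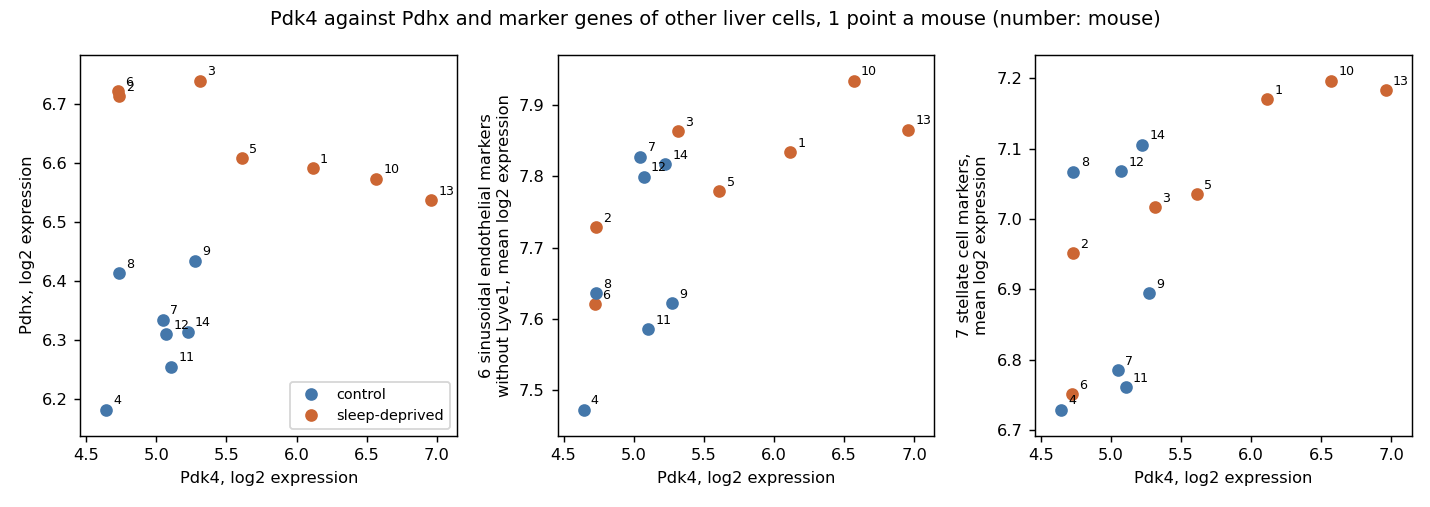
Log2 expression of Pdk4 in each liver (horizontal axis) against Pdhx, the mean of 6 sinusoidal endothelial markers without Lyve1 and the mean of 7 stellate cell markers, 1 point per numbered mouse. Among sleep-deprived mice Pdhx falls as Pdk4 rises (r = -0.919) and both marker means rise with it (r = 0.798 and 0.892); the controls span only 4.64 to 5.27 in Pdk4. After adjustment only the relation to the stellate mean passed (exact permutation test). All these relations were examined after the data were seen.

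Around the complex, 82 further genes of pyruvate use, cofactor supply, related complexes, the citric acid cycle and kinase regulation were measured from 6 lists. Of these 6 rose and 14 fell, where 3.88% of all genes were called higher and 4.62% lower, with a median log2 difference of -0.034. Of the 82 genes 75 are brighter than the median gene, and all 20 calls are among them, beside 16% called of all genes that bright. The 3 remaining parts of the pyruvate dehydrogenase system (Dld, Pdpr and the testis form Pdha2) had 0 calls, and none of these 3 had an unadjusted limma p under 0.05.

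Among genes of pyruvate transport and fates 3 of 19 rose and 3 fell (median -0.018). Slc16a1, the monocarboxylate carrier that moves lactate, pyruvate and ketone bodies across the plasma membrane, rose by 0.54 ± 0.10 (limma, adjusted p = 0.00175), from 7.13 to 7.59 in controls to 7.57 to 8.32, with 6 of 7 livers above all controls. Slc16a7, of the same gene family, had a negative difference and was not called (-0.31 ± 0.12, limma, adjusted p = 0.140). For it 6 livers lay below all controls and 1 above them. Gpt2, which interconverts pyruvate and alanine in mitochondria, rose by 0.20 ± 0.044 without overlap of the groups (adjusted p = 0.00626). Acly and Acss2, which make cytosolic acetyl-CoA from citrate and from acetate, were at -0.47 ± 0.11 and -0.53 ± 0.12 (adjusted p = 0.00651 and 0.00756), and the exact permutation test did not call Acly (adjusted p = 0.0647). Pyruvate entry was not called: Mpc1, a subunit of the mitochondrial pyruvate carrier, was at -0.14 ± 0.049 with 5 livers below all controls (adjusted p = 0.0834), and Pcx, the carboxylase that competes with the complex for pyruvate, at 0.070 ± 0.054 (adjusted p = 0.557). Mpc2 is not analysed here. The remaining calls, Pck1 (0.15) and Ldhd (-0.21), depended on single mice and were absent from 9 and 8 of the 14 leave-one-out fits, and exact permutation called neither (adjusted p = 0.0768 and 0.103).

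The sister complexes, built on the same plan for other 2-oxoacids, had 0 of 10 genes higher and 3 lower (median -0.041). Ppm1k, the phosphatase that activates the branched-chain complex as Pdp1 and Pdp2 activate the pyruvate complex, had the largest fall of the list. Control livers ran from 9.87 to 10.14 (median 10.06) and sleep-deprived livers from 9.13 to 9.41 (median 9.27), without overlap. The difference was -0.75 ± 0.056, or 1.68-fold lower (limma, adjusted p = 1.15e-07). Bckdk, the kinase opposite to it, was at -0.037 ± 0.060 (adjusted p = 0.823). Dhtkd1, which encodes the 2-oxoadipate dehydrogenase of lysine breakdown, fell by 0.47 on the log2 scale, also without overlap (-0.47 ± 0.064, adjusted p = 6.47e-05). Bckdhb, a subunit of the branched-chain complex, was at -0.22 ± 0.058 (adjusted p = 0.0225, and 0.122 with the sample number as a covariate; it did not pass in 2 of the 14 leave-one-out fits). Ogdh of the citric acid cycle complex was at 0.11 ± 0.043 (adjusted p = 0.158).

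Cofactor genes had 0 of 14 higher and 2 lower (median -0.063): Glrx5, an iron-sulfur cluster protein on which lipoate synthesis depends (-0.21 ± 0.051, limma, adjusted p = 0.0131), and Sirt3, a mitochondrial deacetylase (-0.19 ± 0.057, adjusted p = 0.0486). Averaging its probe sets ended the call of Glrx5 (adjusted p = 0.203), and Sirt3 did not pass in 12 of the 14 leave-one-out fits. Slc19a2, a thiamine carrier, was at -0.21 (adjusted p = 0.0774), and Nfu1, an iron-sulfur cluster carrier, at -0.14 (adjusted p = 0.149). In the citric acid cycle 1 of 14 rose and 2 fell (median -0.059). Idh2, the NADP-dependent isocitrate dehydrogenase, was at -0.40 ± 0.076 with 5 livers below all controls (adjusted p = 0.00156), and Suclg2, a subunit of succinyl-CoA ligase, at -0.20 ± 0.045 (adjusted p = 0.00592, and 0.0806 when its probe sets were averaged). Mdh2, malate dehydrogenase, rose by 0.15 ± 0.045 (adjusted p = 0.0464, and 0.193 with the sample number as a covariate) and did not pass in 12 of the 14 leave-one-out fits. Idh3a, of the NAD-dependent isocitrate dehydrogenase, was at 0.20 (adjusted p = 0.0904).

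Regulators known to act on kinase transcription split, 2 of 22 being higher and 4 lower (median -0.00077). Lpin1, a phosphatidate phosphatase that also acts as a partner of PPARA, rose by 1.57 ± 0.12 and Foxo1, the forkhead factor that insulin restrains, by 0.28 ± 0.060 (limma, adjusted p = 1.15e-07 and 0.00426), both without overlap. Pparg was at -1.02 ± 0.17 and Nr3c1, the glucocorticoid receptor gene, at -0.22 ± 0.055, also without overlap (adjusted p = 0.000524 and 0.0136). Ppara was at -0.019 ± 0.079 (adjusted p = 0.941) and its coactivator gene Ppargc1a at 0.18 ± 0.098 (adjusted p = 0.334). Hif1a, whose protein drives Pdk1, was at 0.017 ± 0.056 (adjusted p = 0.921), and since that factor is set mainly by protein stability its RNA says little of its activity. The other lower genes were Ppargc1b (-0.28) and Esrrg (-0.26), which did not pass in 1 and in 6 of the 14 leave-one-out fits. Exact permutation ended the call of Ppargc1b (adjusted p = 0.0553), and the sample number as a covariate that of Esrrg (-0.20, limma, adjusted p = 0.138).

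**Figure D4:**
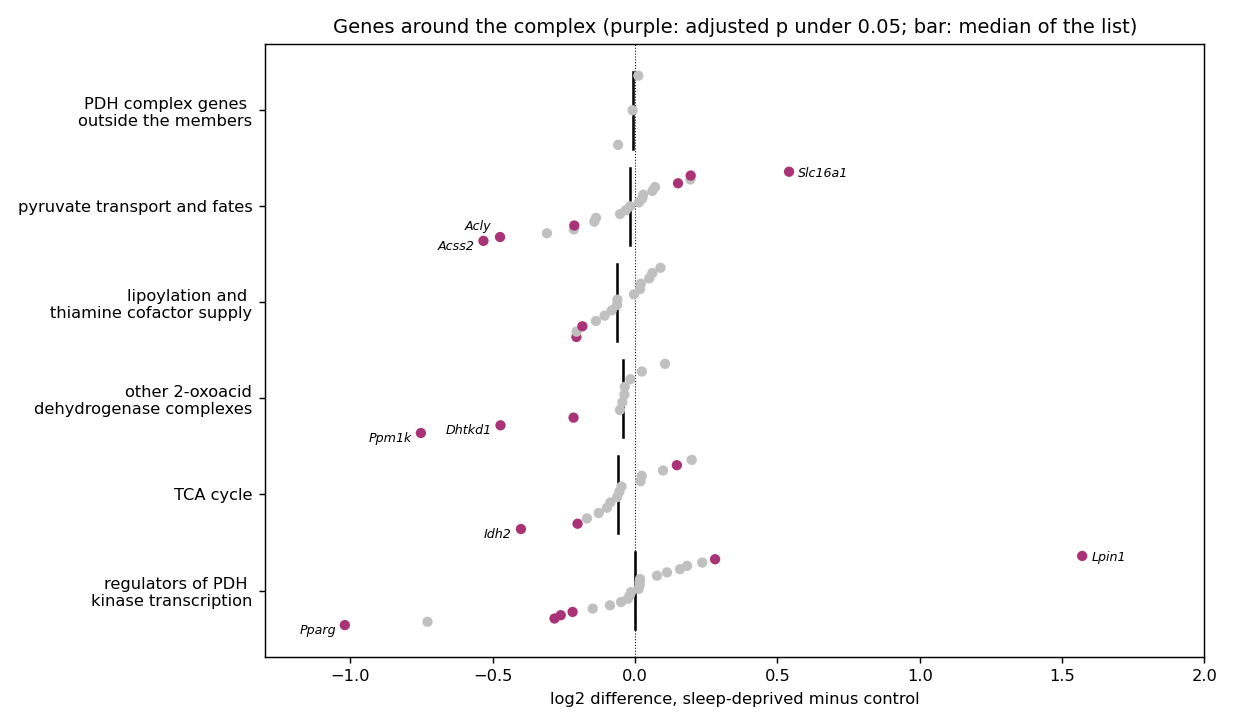
Log2 differences, sleep-deprived minus control, of the genes in 6 lists around the complex, 1 point per gene and a bar at the median of each list; purple marks limma adjusted p under 0.05. The medians lie between -0.063 and -0.00077, and the called genes farthest from 0 are Lpin1 (1.57), Pparg (-1.02) and Ppm1k (-0.75).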

How the data were processed

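The authors deposited, for 14 arrays, log2 values of each probe set from RMA (background correction, quantile normalization, summary of probes), per the submitters' processing notes; no version is recorded there. They hold no counts, so depth does not apply, and 7 arrays per group limit the precision. Of 41345 probe sets 23521 had 1 gene symbol in the platform annotation, 1814 had several and 16010 were not listed there; symbols were checked by gene ID (23328 matched). The brightest probe set of a gene over all arrays was kept, with no filter on dim genes, leaving 22180 genes.

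Groups came from the sample titles, whose numbers are not shared between groups, so nothing was paired. Sleep-deprived minus control was fitted by limma 3.58.1 (R 4.3.3; lmFit, then trended eBayes), two-sided and adjusted by Benjamini-Hochberg over all genes, threshold 0.05. Single genes were also tested by two-sided exact permutation, adjusted over all genes where an adjusted p is given. Relations to Pdk4 within a group were tested by two-sided exact permutation over all 5040 orders of 7 mice. The marker mean without Lyve1 and the relations to Pdk4 were added after seeing the data. Only the main limma fit was tested on simulated data, which had equal spread in both groups, unlike Pdk1 and Pdk4. The members, lists, motifs and tests were chosen with earlier results of these data known. Named were all members, up to 4 genes per list with the smallest adjusted p, 10 core genes (1 of them not measured) and the genes most like Pdk4 and Pdhx; the other genes named by value (Pck1, Ldhd, Slc16a7, Bckdk, Ppargc1b, Esrrg and cell markers) were chosen after their values were seen. Alternatives were eBayes without the trend or robust, array weights, brighter genes only, mean or every probe set, centring, a covariate for the sample number, a second quantile normalization, a log2 threshold of 0.5, permutation and leaving out each mouse. Promoter windows are from RefSeq, GRCm38.p6.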

Additional observations from a re-analysis of the deposited data

Results flagged for a closer look

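Single livers stood apart from the rest of their group in 5 of the 96 groups of 7 values examined (48 named genes, with a gap to the nearest value of over 0.568 of the group's range); chance flags about 1 in 20 groups. Among the 10 genes this was Dlat in control mouse 7, at 7.072 against 6.607 to 6.798 in the other controls. Control mouse 7 was also high for Suclg2, at 10.24 against 10.03 to 10.12. Mdh2 was low in control mouse 14, at 9.641 against 9.783 to 9.875. In the sleep-deprived group Nr3c1 was low in mouse 3, at 7.43 against 7.684 to 7.753, and Pdha2, a dim probe set, was high in mouse 6, at 2.403 against 1.92 to 2.115.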

How the results depend on the processing

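Of the 10 genes, the 1 called higher (Pdhx) and the 1 called lower (Pdk1) became 2 higher with the sample number as a covariate, where Pdk4 was added, and 0 lower when the probe sets of a gene were averaged. With a log2 threshold of 0.5 beside the adjusted p, 0 were higher and 0 lower, 391 of all genes passed, and 5 of the pathway genes. Leaving out 1 mouse gave 1 to 2 higher, the 2 being without sleep-deprived mouse 2 or 6. Over the 14 such fits Pdk1 lay between -0.41 and -0.30 and Pdhx between 0.30 and 0.34, both called in all 14. Uncalled genes near 0 changed sign: Pdha1 was at -0.00095 after quantile normalization again and between -0.021 and 0.032 over the fits that left out a mouse, Pdp2 was between -0.078 and 0.0025 over those fits, and Pdhb was at -0.0040 with the sample number as a covariate. No paired analysis was possible because the groups share no replicate number. Dim probe sets (Pdk3, Pdp1 and the other probe set of Pdk1) limit what can be seen of those genes.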
